A study of Mus musculus with 2 samples.

Results

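The circadian clock genes described here are 10 genes of the molecular clock, Per1, Per2, Per3, Dbp, Nr1d1, Nr1d2, Arntl, Clock, Cry1 and Cry2, taken by their symbols from the 32285 genes of 2 single-cell libraries. Sorted spinal microglia, the resident macrophages of the cord, were profiled by droplet capture from the 3′ end of their RNA, and a unique molecular identifier (UMI) on each molecule let PCR copies be counted once. There was 1 library of control mice, labelled WT and given in the methods as Eif4ebp1 fl/fl, and 1 library of 4E-BP1–cKO mice, Eif4ebp1 fl/fl:TMEM119 CreERT2, in which an inducible Cre under the Tmem119 promoter deletes the gene in microglia. 4E-BP1 is a repressor of cap-dependent translation. The study's mice were 8 to 10 weeks old, both genotypes of this experiment were male, and 4-OHT had been injected from P4 to P9. Cells came from the lumbar cord after collagenase digestion at warm temperature, a Percoll gradient and a sort for CD45lo CD11b and CX3CR1 cells. Neither the number of mice per library nor the hour of collection is stated in the labels or the methods.

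The filter was over 300 genes detected and less than 5% of UMIs from mitochondrial genes. It left 1147 of 1216 control barcodes with 4803562 UMIs (median, 3053 per cell) and 445 of 474 4E-BP1–cKO barcodes with 1734332 UMIs (median, 2776 per cell), and the libraries shared 0 barcodes. At least 3 of 10 microglial markers were detected in 95.2% of control and 91.2% of 4E-BP1–cKO cells. The targeted gene, Eif4ebp1, had 95 UMIs (19.8 CPM, counts scaled to 1000000 UMIs of the kept cells) in the control and 51 (29.4 CPM) in the 4E-BP1–cKO library, a ratio of 1.49 (1.04 to 2.11), so its level went against the label. Droplet libraries of this kind read transcripts near their 3′ end and the positions of these reads were not analysed here, so the count does not check whether the floxed exon was deleted. Both libraries are called by their labels, and each direction given below rests on those labels. A single library stands for each genotype, so no test of genotype was run. Intervals are exact 95% Poisson intervals for levels, exact conditional intervals for ratios and Clopper-Pearson intervals for shares. They hold the error of counting but none of the variation from mouse to mouse or sort to sort. Intervals on UMIs also take each UMI as independent, so they are too narrow where a few cells hold many UMIs of a gene. Levels are given in CPM. They are compared between cells and libraries for 1 gene at a time, because a 3′ count does not give levels that can be ranked across genes.

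The circadian clock is a loop of transcription and repression with a period of about a day, and it runs in nearly all cells, macrophages included. The proteins of Arntl (also called Bmal1) and Clock pair on E-box sequences and activate the Per, Cry, Nr1d and Dbp genes. PER and CRY proteins return to inhibit that pair, and the NR1D proteins (REV-ERBs) repress Arntl through ROR elements (ROREs). Arntl transcripts therefore peak in antiphase to those of Nr1d1, Dbp and the Per genes, and the balance of the opposed genes moves with the hour at which tissue is taken. Per1 is also an immediate responder to glucocorticoids and cAMP.

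Sequence elements of the kind that clock proteins read are shown from RefSeq windows around the transcription start, from 250 bases before to 50 after it, on GRCm38.p6, the build of the mm10 coordinates. Windows were found for 9 of the 10 genes, 13 windows in all; Per2 had none. Both strands were searched for the E-box CACGTG (in 7.15% of all 32851 windows), the E-prime box CACGTT (4.68%), the D-box TTANGTAA (2.32%), the RORE core TAGGTCA (2.61%) and the cAMP response element TGACGTCA (1.79%). None of these motifs shares a position with another in the windows shown. Capitals mark the matches and each stretch is written 5′ to 3′ on the gene's strand. The first 4 stretches are shown because their E-box or E-prime box is the kind of element that ARNTL and CLOCK bind. Those of Per1 (chr11:69098753-69098818, + strand) and Cry1 (chr10:85185079-85185163, − strand) hold an E-box that starts at −166 and −60 bases from the start, and that of Cry1 also holds an E-prime box at −79. Those of Cry2 (chr2:92434200-92434265, − strand) and Nr1d1 (chr11:98775378-98775435, − strand) hold an E-prime box at −166 and −28. These E-prime boxes, that of Cry1 included, read AACGTG on the gene's strand and CACGTT on the other.
Per1: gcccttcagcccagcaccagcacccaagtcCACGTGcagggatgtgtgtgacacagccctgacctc
Cry1: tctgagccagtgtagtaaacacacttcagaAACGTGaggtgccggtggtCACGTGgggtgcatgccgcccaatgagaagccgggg
Cry2: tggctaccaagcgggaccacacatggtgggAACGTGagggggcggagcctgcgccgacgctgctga
Nr1d1: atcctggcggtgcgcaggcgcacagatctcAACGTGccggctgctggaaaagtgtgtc
The stretch of Per3 (chr4:151044786-151044900, − strand) is shown for its pair of D-boxes, at −205 and −158, the element bound by DBP. The site of Arntl (chr7:113207530-113207558, + strand, in 1 of its 2 windows, 30 bases after the start) is shown for its RORE core, the letters that REV-ERBs and RORs read.
Per3: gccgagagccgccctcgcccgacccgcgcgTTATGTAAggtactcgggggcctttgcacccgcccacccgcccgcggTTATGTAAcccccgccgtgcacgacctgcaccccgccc
Arntl: aaggcagaaagTAGGTCAgggacggaggt
Dbp, Nr1d2 and Clock held none of these letters in their windows. A match is a description of the letters and not a measurement of binding.

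No clock gene differed between the libraries by more than the counting error. All 10 ratios of 4E-BP1–cKO over control lay between 0.71 and 1.43, and all 10 intervals held 1. Of the 11784 genes with at least 20 UMIs, 8.02% had an interval above 1 and 12.7% one below 1. None was 1.5-fold higher, where 4.32% of those genes were, and none was 1.5-fold lower, where 11.3% were. The median log2 ratio was -0.10 over the 10 clock genes and -0.05 over all of those genes. Together the 10 genes had 2278 UMIs in the control and 776 in the 4E-BP1–cKO library, 474 and 447 CPM, a ratio of 0.94 (interval, 0.87 to 1.02). Thinning each cell to 872 UMIs put Per2, Dbp, Nr1d1, Arntl and Cry2 past 1.5-fold, 5 genes that were then found in only 0 to 22 cells of a library.

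Gene positions are those of RefSeq on GRCm38.p6. Of the activators, Arntl (ENSMUSG00000055116, chromosome 7, 113178471 to 113314126) had 95 UMIs in the control and 30 in the 4E-BP1–cKO library, or 19.8 and 17.3 CPM. Its ratio was 0.87 (0.56 to 1.33). Clock (ENSMUSG00000029238, chromosome 5, 76209868 to 76305603) had 464 and 160 UMIs, or 96.6 and 92.3 CPM, a ratio of 0.96 (0.79 to 1.15). The interval of Clock was the narrower, while that of Arntl reached past 1.3-fold on its upper side and past 1.5-fold on its lower side. The pair of activators summed to a ratio of 0.94 (0.79 to 1.11).

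Of the PER repressors, Per1 (ENSMUSG00000020893, chromosome 11, 69095108 to 69109965) had 468 and 149 UMIs, or 97.4 and 85.9 CPM, and a ratio of 0.88 (0.73 to 1.06). Per2 (ENSMUSG00000055866, chromosome 1, 91415977 to 91459351) was sparse, with 31 and 16 UMIs, and its ratio of 1.43 had an interval of 0.73 to 2.69. Per3 (ENSMUSG00000028957, chromosome 4, 150997018 to 151044707), which has a lesser part in the core loop, had 86 and 22 UMIs and a ratio of 0.71 (0.42 to 1.14). The Per genes thus gave values on both sides of 1, and only Per1 was counted deeply enough to bound a difference below 1.5-fold in either direction.

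Of the CRY repressors, which inhibit the ARNTL–CLOCK pair directly, Cry1 (ENSMUSG00000020038, chromosome 10, 85131700 to 85185054) had the most UMIs of the 10 genes, 691 in the control and 243 in the 4E-BP1–cKO library. At 143.9 and 140.1 CPM its ratio was 0.97 (0.84 to 1.13), the narrowest interval of the 10. Cry2 (ENSMUSG00000068742, chromosome 2, 92403646 to 92434085) had 54 and 14 UMIs and a ratio of 0.72 (0.37 to 1.31). Cry1 made up 92.8% of the Cry UMIs in the control (90.6 to 94.5%) and 94.6% in the 4E-BP1–cKO library (91.0 to 97.0%), which overlap.

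The REV-ERB genes and Dbp are direct E-box targets that swing widely over the day in many tissues. Nr1d2 (ENSMUSG00000021775, chromosome 14, 18204056 to 18239106), which codes for REV-ERBβ, had 315 and 114 UMIs, or 65.6 and 65.7 CPM, a ratio of 1.002 (0.80 to 1.25). Nr1d1 (ENSMUSG00000020889, chromosome 11, 98767932 to 98775377), which codes for REV-ERBα, had 37 and 12 UMIs and a ratio of 0.90 (0.43 to 1.76). Dbp (ENSMUSG00000059824, chromosome 7, 45705100 to 45710203), a D-box activator and an output of the clock, had 37 and 16 UMIs and a ratio of 1.20 (0.62 to 2.21). Nr1d1 and Dbp, the more phase-specific of these genes, were among the 4 least counted in the control, so a difference of less than about 2-fold in them was not detectable at this depth. Nr1d1 overlaps Thra by 1075 bases and Dbp overlaps Sphk2 by 741 bases in RefSeq, and the sources used here do not say whether reads were assigned by strand. Per2, Per3, Arntl, Clock and Cry2 overlap other RefSeq entries too, such as Uts2 by 4714 bases for Per3 and D930015M05Rik by 23417 bases for Cry2.

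**Figure D1:**
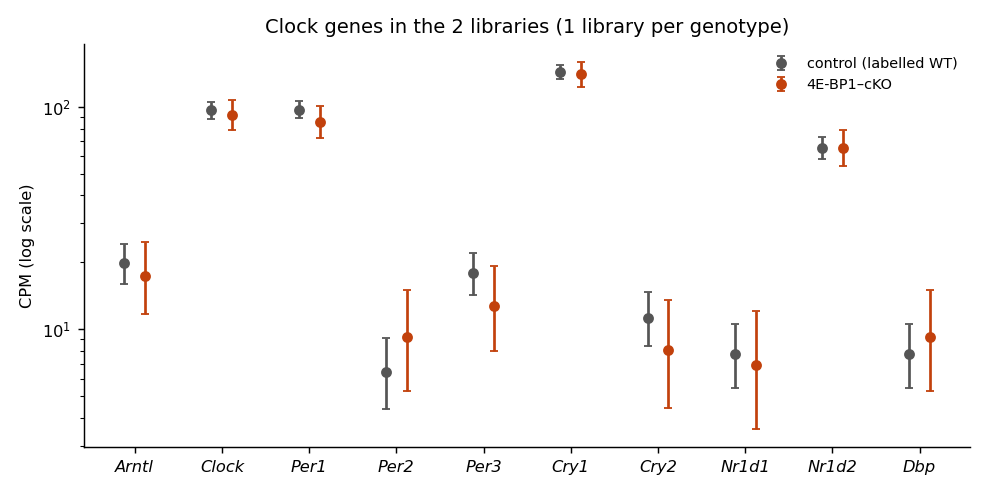
CPM (log scale) of each clock gene in the control library (grey) and the 4E-BP1–cKO library (orange), 1 library each, with exact 95% Poisson intervals as bars. For each of the 10 genes the bars of the 2 libraries overlap, and they are widest for the genes with fewest UMIs, Nr1d1, Per2, Dbp and Cry2.

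The balance of opposed genes within a library needs no scaling to the library's total and served as a check of the hour of collection. It can still move with thinning and with the mix of cells, as given below. Per1 was also higher in control cells with a larger early gene share. Arntl is among the genes whose UMIs could not be told apart from free RNA by their share of cells. The part of either in these balances was not tested. The genes that peak in the day of the mouse, Nr1d1, Nr1d2, Dbp and Per3, had 475 UMIs against 95 of Arntl in the control and 164 against 30 in the 4E-BP1–cKO library. They took 83.3% of the UMIs of both kinds in the control (80.02 to 86.3%) and 84.5% in the 4E-BP1–cKO library (78.7 to 89.3%). The intervals overlapped over most of their width. Most of the day-peaking UMIs were of Nr1d2, 315 in the control and 114 in the 4E-BP1–cKO library. Per1 and Per2 took 84.0% (80.8 to 86.9%) and 84.6% (78.8 to 89.4%) against Arntl. Per1 gave 468 of the 499 UMIs of that pair in the control and 149 of 165 in the 4E-BP1–cKO library. Nr1d1 and Dbp took 43.8% (36.2 to 51.6%) and 48.3% (35.0 to 61.8%). Cry1, whose transcript peaks later than that of Per1, took 59.6% of their sum in the control (56.7 to 62.5%) and 62.0% in the 4E-BP1–cKO library (57.0 to 66.8%). No balance set the libraries apart beyond counting error. Similar balances do not give the hour itself, since hours on the rising and the falling slope of a rhythm can give the same balance. When each cell was thinned to 872 UMIs the first balance came to 77.9% in the control and 90.2% in the 4E-BP1–cKO library, further apart than with all UMIs.

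The balances were also computed in 2 cell states. In cells with under 3% of UMIs on ribosomal protein genes, the day-peaking genes took 83.3% (78.2 to 87.6%) in the control and 87.7% (77.9 to 94.2%) in the 4E-BP1–cKO library. In the other cells they took 83.4% (78.7 to 87.4%) and 82.6% (74.7 to 88.9%). The intervals of these 4 values overlapped. The share of Cry1 in the sum of Cry1 and Per1 did not behave this way in the control, where it was 64.8% (60.7 to 68.8%) in ribosome-poor and 54.9% (50.8 to 58.9%) in other cells. In the 4E-BP1–cKO library it was 63.5% (56.0 to 70.6%) and 60.7% (53.9 to 67.3%).

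Most cells held few clock transcripts. Cry1 was detected in 30.8% of control cells (28.1 to 33.5%) and 28.3% of 4E-BP1–cKO cells (24.2 to 32.7%), Per1 in 27.6% and 23.1%, and Clock in 26.2% and 23.1%. Nr1d2 was detected in 19.6% and 19.8%, and the other 6 genes in 2.53 to 7.06% of control and 2.70 to 5.39% of 4E-BP1–cKO cells. For comparison, the most widely found of 6 oligodendrocyte markers, genes microglia do not need, had a UMI in 10.2% and 14.8% of cells, and the most widely found of 5 astrocyte markers in 1.83% and 1.57%. The most widely found of 8 markers of border-associated macrophages, whose list microglia may express in part, had a UMI in 24.9% and 17.8%, although at least 3 of the 8 were found in just 2 control cells and 1 4E-BP1–cKO cell. Cry1, Per1 and Clock were found in more cells than each of these markers, Clock in the control by less than its interval (23.6 to 28.8%). Nr1d2 was found in more cells than the oligodendrocyte and astrocyte markers but in fewer control cells than the macrophage marker. UMIs of the other 6 could not be told apart from free RNA by their share of cells alone. At least 1 of the 10 genes was detected in 68.3% of control cells (65.5 to 71.0%) and 63.4% of 4E-BP1–cKO cells (58.7 to 67.9%). After thinning, which dropped 89 shallower cells of the control and 70 of the 4E-BP1–cKO library, those shares were 32.5% (29.7 to 35.4%) and 29.9% (25.3 to 34.8%), and no cell held 4 of the genes, which had been 6.45% and 5.84%.

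The UMIs of Cry1 were unevenly spread over cells. In the control, 19 cells with at least 5 Cry1 UMIs held 138 of its 691 UMIs, and 1 cell held 22. In the 4E-BP1–cKO library, 4 such cells held 45 of 243, and 1 cell, with 35216 UMIs in all, held 24. Neither of the topmost cells was called a doublet. Of the cells with a Cry1 UMI, 53.8% and 55.6% held just 1, against 72.5% and 67.0% for Per1 and 69.3% and 66.0% for Clock. The cells with at least 5 Cry1 UMIs were deep, with a median of 8926 UMIs in the control and 17551 in the 4E-BP1–cKO library, and the part of depth in this spread was not tested. For Per1, 6 control cells and 0 4E-BP1–cKO cells held at least 5 UMIs.

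Microglia in both libraries fell into a range of ribosomal transcript content. Cells with under 3% of UMIs on the 85 ribosomal protein genes, called ribosome-poor here, numbered 657 in the control (57.3%) and 212 in the 4E-BP1–cKO library (47.6%). This is a division of a range and not a cell type, and 85 and 28 cells lay between 2.5 and 3.5%. The ribosome-poor cells were shallower, with a median of 2354 against 5512.5 UMIs in the control and 1971.5 against 4716 in the 4E-BP1–cKO library. Each library gives the contrast on its own.

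Cry1, Clock and Nr1d2 were higher in CPM in ribosome-poor cells in both libraries, with intervals above 1. They were the 3 of 10 clock genes with such an interval in the control, beside 27.6% of all genes, and with Per1 they were 4 of 6 in the 4E-BP1–cKO library, beside 23.8%. Intervals above 1 in both libraries were found for 3 of the 6 clock genes with at least 20 UMIs in each, beside 18.9% of all such genes. Cry1, Clock, Nr1d2 and Per1 are the 4 most counted of the 10, and more UMIs make an interval narrower. Between the libraries the share of genes with an interval above 1 was 8.02% at a minimum of 20 UMIs and 14.0% at 200. Shares at like depth were not computed for the cell states, so these counts show no excess particular to clock genes. Cry1 stood at 192.5 CPM in ribosome-poor and 113.0 CPM in other control cells, a ratio of 1.70 (1.46 to 1.98), and at 200.1 and 111.2 CPM in the 4E-BP1–cKO library, a ratio of 1.80 (1.39 to 2.33). The topmost Cry1 cell of each library was ribosome-poor, at 2.90% in the control and 1.42% in the 4E-BP1–cKO library. These cells gave 22 of 359 and 24 of 113 Cry1 UMIs on the ribosome-poor side. The ratios without them were not computed. Clock stood at 119.0 and 82.4 CPM in the control, a ratio of 1.44 (1.20 to 1.74), and at 139.9 and 69.3 CPM in the 4E-BP1–cKO library, a ratio of 2.02 (1.46 to 2.79). The ratios of Nr1d2 were 1.49 (1.18 to 1.87) and 1.56 (1.05 to 2.30). Cry1, Clock and Nr1d2 thus shared a direction in both libraries. The medians of all genes of their lengths had that direction too. In the control the median log2 ratio was 0.29 for genes of 40 to 80 kb (as Cry1), 0.45 for 80 to 160 kb (as Clock) and 0.08 for 20 to 40 kb (as Nr1d2). In the 4E-BP1–cKO library these medians were 0.36, 0.57 and 0.05. TMM scaling moved all log2 ratios of this contrast by -0.23 in the control and -0.22 in the 4E-BP1–cKO library. Under it Cry1 stood at 1.45 (1.24 to 1.69) and 1.55 (1.19 to 2.01), Clock at 1.23 (1.02 to 1.48) and 1.74 (1.26 to 2.40), and Nr1d2 at 1.26 (1.01 to 1.59) and 1.34 (0.91 to 1.98), the last with an interval that held 1.

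Per1 was less uniform. Its ratio was 1.13 (0.93 to 1.36) in the control and 1.60 (1.14 to 2.24) in the 4E-BP1–cKO library, where other cells had 71.8 CPM against 92.9 in the control. Dbp had 11 UMIs in ribosome-poor and 26 in other control cells, a ratio of 0.67 (0.30 to 1.396), and Nr1d1 had a ratio of 0.96 (0.46 to 1.94). Per2 (1.91, 0.89 to 4.19), Cry2 (1.70, 0.96 to 3.01), Per3 (1.44, 0.92 to 2.24) and Arntl (1.36, 0.89 to 2.07) had control ratios above 1 whose intervals held 1. In the 4E-BP1–cKO library Per3 had a ratio of 1.18 and Arntl of 0.89 (0.36 to 2.02), and the other 4 genes had under 20 UMIs.

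On the log2 scale with 1 CPM added, 3 of 10 clock genes (Cry1, Per2 and Cry2) were at least 1.5-fold higher in ribosome-poor control cells, beside 20.6% of all 11083 genes, and 0 were 1.5-fold lower, beside 20.2%. In the 4E-BP1–cKO library 4 of the 6 clock genes with at least 20 UMIs (Cry1, Clock, Nr1d2 and Per1) were higher, beside 25.6% of 8022 genes, and 0 were lower, beside 24.0%. The median log2 ratio of the clock genes was 0.51 in the control, against 0.11 over all genes, and 0.65 in the 4E-BP1–cKO library, against 0.10. These counts depended on the scaling and the division. With TMM factors 1 clock gene in the control and 2 in the 4E-BP1–cKO library were past 1.5-fold, and with the division at 2% none was in the control.

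**Figure D2:**
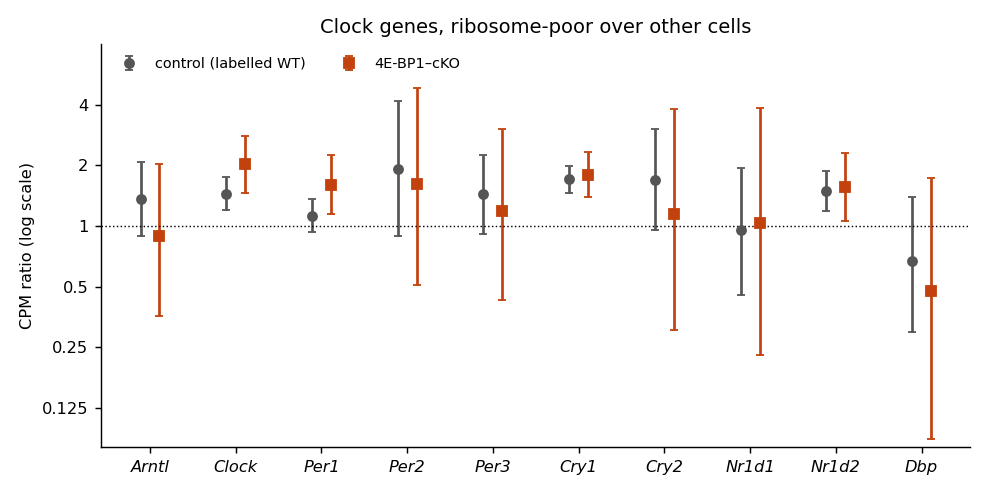
Ratio of CPM in ribosome-poor over other cells (log scale) for each clock gene in the control (grey circles) and the 4E-BP1–cKO library (orange squares), with exact 95% conditional intervals; the dotted line is at 1. Cry1, Clock and Nr1d2 lie above 1 with their intervals in both libraries, and Per1 in the 4E-BP1–cKO library.

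The share of cells with a UMI gave a weaker picture than the CPM. With all UMIs, Cry1 was detected in 28.8% of ribosome-poor and 33.5% of other control cells, which follows their depths. After thinning to 872 UMIs it was detected in 11.5% (9.11 to 14.2%) and 10.2% (7.47 to 13.5%) in the control and in 10.4% and 9.41% in the 4E-BP1–cKO library, with overlapping intervals. Clock was detected after thinning in 8.33% (6.30 to 10.8%) of ribosome-poor and 4.98% (3.11 to 7.51%) of other control cells, and in 8.09% and 4.95% of those 4E-BP1–cKO cells. Thinning dropped unlike shares of the 2 states. It kept 636 of 657 ribosome-poor and 422 of 490 other cells in the control, and 173 of 212 and 202 of 233 in the 4E-BP1–cKO library. The thinned values are therefore of a changed set of cells. Thinned shares were higher in ribosome-poor cells for 7 of 10 clock genes in the control, beside 52.5% of all genes, and for 6 of the 6 with at least 20 UMIs in the 4E-BP1–cKO library, beside 54.6%. The log2 ratio of Cry1 in the control was 0.31 after thinning and 0.76 with all UMIs, and in 4E-BP1–cKO cells it was 0.36 and 0.84.

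Gene length moved with the same contrast. The median log2 ratio of ribosome-poor over other control cells was -0.55 for genes under 10 kb, 0.29 for genes of 40 to 80 kb and 0.58 for genes of 160 kb or more, and -0.79, 0.36 and 0.79 in the 4E-BP1–cKO library. Dbp (5.10 kb) and Nr1d1 (7.45 kb), the shortest clock genes, had the lowest control ratios, and Clock (95.7 kb), Cry1 (53.4 kb), Per3 (47.7 kb) and Per2 (43.4 kb) are long. Beside the median of the genes of their own length, 9 of 10 clock genes in the control and 4 of 6 in the 4E-BP1–cKO library were higher. By definition a median leaves as many genes of its bin above it as below. Counting error was not weighed in this count, and some margins were small. In the control Dbp stood at -0.51 against -0.55, from 11 and 26 UMIs, and Clock at 0.53 against 0.45. Arntl, the longest at 135.7 kb, was below it in both libraries, at 0.42 against 0.45 and -0.16 against 0.57. Per1, at 14.9 kb, stood at 0.17 and 0.67 where genes of 10 to 20 kb had medians of -0.13 and -0.28. The sources used here do not say whether intronic reads were counted, and the part of gene length in these ratios was not tested. The comparison with genes of like length was chosen after seeing the data.

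**Figure D3:**
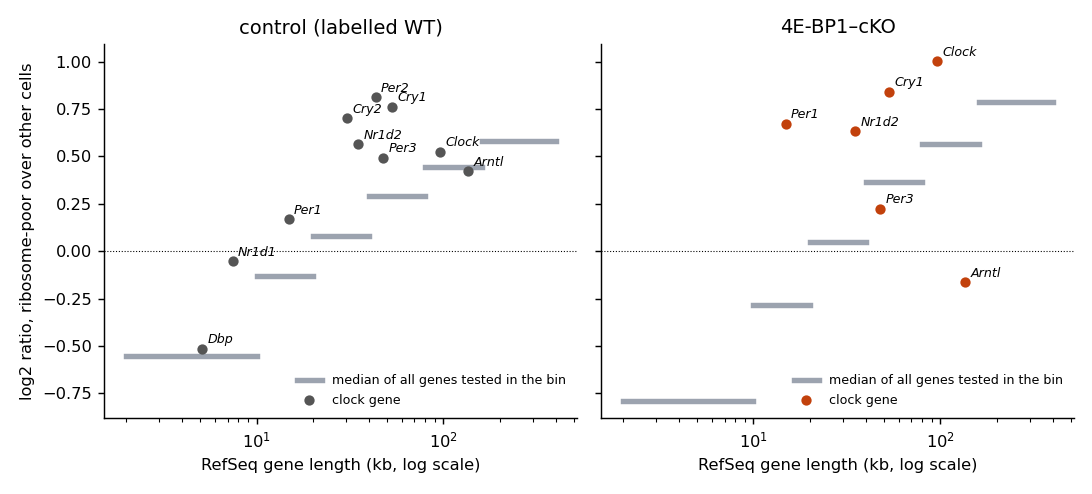
Log2 ratio of ribosome-poor over other cells (y axis) against RefSeq gene length in kb (x axis, log scale) in the control (left) and the 4E-BP1–cKO library (right). Points are clock genes with at least 20 UMIs and grey bars the median of all genes in a length bin. In the control 9 of 10 points lie above their bar and in the 4E-BP1–cKO library 4 of 6, some by small margins. A median leaves as many genes of its bin above it as below.

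The clock genes were also compared between the libraries within each cell state. In ribosome-poor cells, 0 of 8 clock genes with at least 20 UMIs were 1.5-fold higher in the 4E-BP1–cKO library (7.79% of 9166 genes were) and 2 were 1.5-fold lower (15.2% were). The 2 genes were Cry2, with 28 UMIs in the control and 5 in the 4E-BP1–cKO library, and Per3, with 41 and 8, and both intervals held 1. In the other cells 1 of 10 was higher (5.26% of 10450 genes), Per2 with 14 and 9 UMIs, and 0 were lower (11.7%). Per1 in the other cells had 273 and 84 UMIs and a ratio of 0.77 (0.60 to 0.99), the only interval of the 20 that left out 1. Over all kept cells, 8.02% of the 11784 genes had an interval above 1 and 12.7% one below 1. Those shares were not computed within a state. In ribosome-poor cells the ratio of Per1 was 1.10 (0.82 to 1.46). The difference between these ratios was not tested.

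**Figure D4:**
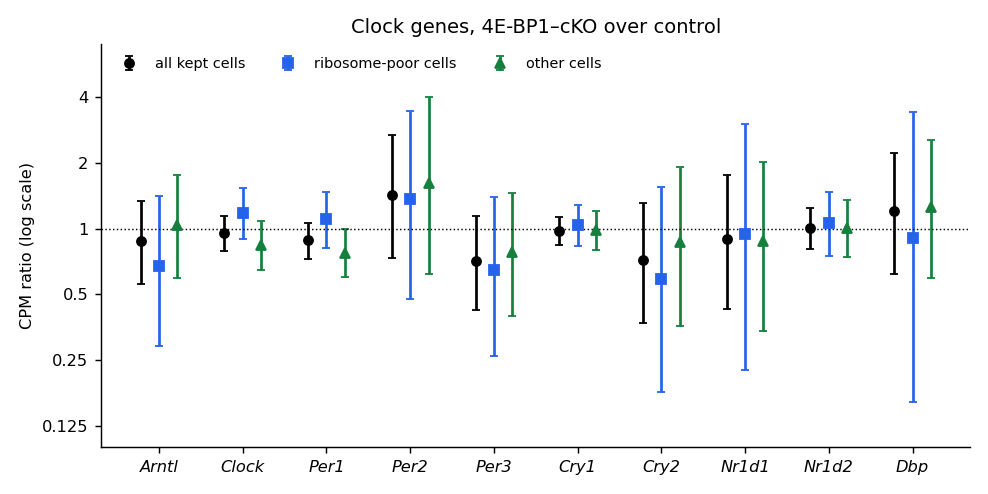
Ratio of CPM in the 4E-BP1–cKO over the control library (log scale) for each clock gene over all kept cells (black), ribosome-poor cells (blue) and other cells (green), with exact 95% conditional intervals; the dotted line is at 1. All intervals hold 1 except that of Per1 in the other cells, 0.60 to 0.99.

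The clock genes were then described over 9 clusters, drawn without the clock genes and numbered by size. Clusters 1, 2, 4 and 8 had a median ribosomal share under 3%. Cluster 9, the smallest, had a median share of 18.5% and held 26 control and 17 4E-BP1–cKO cells. Cry1 was highest in cluster 4 and lowest in cluster 9 in both libraries. It stood at 223.7 CPM (179.6 to 275.3) in cluster 4 and 40.1 CPM (14.7 to 87.3) in cluster 9 of the control, and at 286.5 CPM (203.8 to 391.7) and 10.9 CPM (0.27 to 60.5) in the 4E-BP1–cKO library. Cluster 7, with a high ribosomal share, came next to last at 68.5 CPM in the control and 84.6 CPM in the 4E-BP1–cKO library. Over both libraries the order ran 4, 8, 2, 3, 6, 1, 5, 7, 9. The intervals of neighbours were apart at 2 of its steps, from 5 to 7 and from 7 to 9. Cluster 8 overlapped cluster 4 in each library, at 154.3 to 255.8 CPM in the control and 111.7 to 342.8 CPM in the 4E-BP1–cKO library.

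Per1 was also highest in cluster 4 in both libraries, at 140.7 CPM (106.3 to 182.8) in the control and 213.1 CPM (142.7 to 306.0) in the 4E-BP1–cKO library, and lowest in cluster 9, with 5 and 1 UMIs. Its interval in cluster 4 overlapped that of cluster 6 in the control (98.3 to 147.9 CPM). In the 4E-BP1–cKO library it overlapped that of cluster 2 (51.8 to 185.8 CPM). Nr1d2 had the same highest cluster, at 90.5 and 146.9 CPM, but cluster 5 was close at 88.2 and 122.7 CPM, and in the control the interval of cluster 4 overlapped that of its lowest cluster, cluster 9 (18.8 to 96.4 CPM). Clock did not share it. Clock was highest in cluster 5 of the control, at 165.4 CPM (120.7 to 221.4). In the 4E-BP1–cKO library it was highest in cluster 1, at 155.8 CPM (102.7 to 226.7), and it was lowest in cluster 9 in both. Cluster 5 is not a ribosome-poor cluster, with a median ribosomal share of 4.60%. It is also the shallowest, with a median of 768 UMIs. Arntl had its highest value in cluster 5 in both libraries, 33.1 and 43.8 CPM, from 9 and 5 UMIs, with intervals that overlapped those of its lowest clusters. Neighbours in the order of clusters mostly had overlapping intervals, at all steps but 1 for Per1 and for Clock and at all steps for the other 7 genes beside Cry1. The shares of all genes highest in cluster 4 or lowest in cluster 9 were not computed. These places therefore show nothing particular to clock genes.

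**Figure D5:**
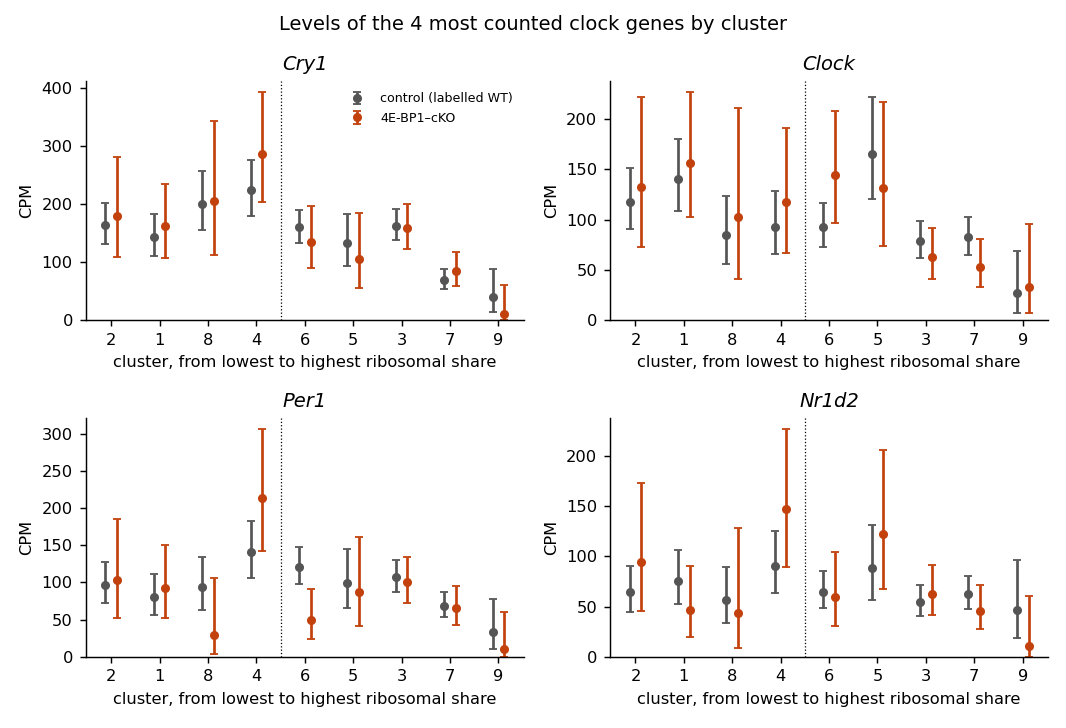
CPM of Cry1, Clock, Per1 and Nr1d2 in each of 9 clusters, ordered from the lowest to the highest ribosomal share, in the control (grey) and the 4E-BP1–cKO library (orange) with exact 95% Poisson intervals; clusters left of the dotted line have a median ribosomal share under 3%. Cry1, Per1 and Nr1d2 have their highest value in cluster 4 in both libraries, and Clock does not. For each of these genes the bars of cluster 4 overlap those of the next highest cluster. All 4 genes are lowest in cluster 9, which held 26 control and 17 4E-BP1–cKO cells. For Nr1d2 in the control the bars of clusters 4 and 9 overlap.

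Of the 90 pairs of a clock gene and a cluster, 2 had an interval of the ratio of 4E-BP1–cKO over control that left out 1, beside 6.69% of the pairs over all 11784 genes. Both were in cluster 6, which held 119 control and 35 4E-BP1–cKO cells. Per1 had 97 and 10 UMIs there (121.2 and 49.9 CPM), a ratio of 0.41 (0.19 to 0.79). Cry2 had 19 UMIs in the control cells, 23.7 CPM (14.3 to 37.1), against 0 in the 4E-BP1–cKO library, which allows up to 18.4 CPM by its interval.

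By the rule of the highest correlation of log2 CPM over 17 points of a cluster and a library, the genes most like Cry1 were Pias2 (Pearson r = 0.97), Asxl2 (0.93) and Neurl3 (0.90). Those most like Clock were Zfyve1 (0.90), Zfand6 (0.90) and Ptprm (0.89), and those most like Per1 were Chsy1 (0.89), Scpep1 (0.89) and Arhgap25 (0.87). The points share libraries, depth and the ribosomal share of the clusters, so these values are a description.

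Other genes of the clock pathway were compared between the libraries as well. Of 26 regulators and outputs, 20 had at least 20 UMIs, with a median log2 ratio of -0.07. Of these, 0 were 1.5-fold higher, beside 4.32% of all 11784 genes, and 1 was lower, beside 11.3%. That gene was Btrc, which codes for β-TrCP, the ubiquitin ligase subunit that marks PER proteins for destruction, with 290 and 63 UMIs and a ratio of 0.60 (0.45 to 0.79). Fbxw11, its close relative, had 1960 and 661 UMIs and a ratio of 0.93 (0.85 to 1.02). Rora, a RORE-binding activator, had 284 and 116 UMIs and a ratio of 1.13 (0.90 to 1.41). Bhlhe41, an E-box repressor, stood at 164.5 and 143.6 CPM, a ratio of 0.87 (0.75 to 1.01). The clock outputs Tef and Ciart, E-box targets like Dbp but more counted here, had ratios of 0.83 (0.58 to 1.17) and 0.83 (0.56 to 1.21), and Nfil3, which opposes DBP on D-boxes and is expressed in the opposite phase, had a ratio of 0.75 (0.47 to 1.17).

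Other inputs to Per1 and the clock were counted beside it, since the cells were warmed and handled before capture. Among 8 glucocorticoid targets, Fkbp5 was lower in the 4E-BP1–cKO library, with a ratio of 0.65 (0.51 to 0.82), Sgk1 was higher at 1.26 (1.17 to 1.36), and Tsc22d3 stood at 1.01 (0.87 to 1.18). These targets thus went in different directions. Of 12 immediate early genes, 11 had intervals above 1, beside 14.0% of the 4887 genes with at least 200 UMIs, Egr1 at 1.55 (1.496 to 1.60) and Fos at 1.22 (1.18 to 1.27), while Per1 stood at 0.88. Of 10 heat shock and temperature genes, 7 had intervals below 1, beside 19.6% of those genes, and Rbm3, a cold-inducible RNA-binding protein, had a ratio of 1.27 (1.06 to 1.52). The part of handling in the clock genes' values was not tested.

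Within each library, Per1 was set against the share of early gene UMIs in the same cells. In the control, Per1 stood at 114.9 CPM in cells above the library's median early gene share and 73.7 CPM in the rest, a ratio of 1.56 (1.28 to 1.91), and Cry1 had a ratio of 1.28 (1.10 to 1.503). By the 1.5-fold rule Per1 was the 1 clock gene of 10 that was higher, where 6.20% of all genes were. Dbp had a ratio of 1.53 (0.74 to 3.35) from 25 and 12 UMIs, under 1.5-fold once 1 CPM was added. In the 4E-BP1–cKO library 0 of 6 were higher, where 12.2% of all genes were. There Per1 had a ratio of 1.02 (0.73 to 1.43), Clock 0.67 (0.49 to 0.93) and Cry1 0.73 (0.56 to 0.95).

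This division moved with the ribosomal one. Cells above the median early gene share were ribosome-poor in 43.1% of cases in the control, against 71.4% of the rest, and in 29.3% against 65.9% in the 4E-BP1–cKO library. Cells above that median were also deeper, with medians of 3694 against 2690 UMIs in the control and 3781 against 2095 in the 4E-BP1–cKO library. When the cells were divided by early gene share within each ribosomal state, a comparison chosen after seeing the data, Per1 was above 1 in all 4 sets. Its ratio was 1.54 (1.15 to 2.09) in ribosome-poor and 1.39 (1.09 to 1.79) in other control cells. In the 4E-BP1–cKO library it was 1.56 (0.92 to 2.72) in ribosome-poor and 2.02 (1.24 to 3.39) in other cells. Cry1 had ratios of 1.52 (1.22 to 1.89) and 1.504 (1.01 to 2.26) in the ribosome-poor cells of the control and the 4E-BP1–cKO library, and of 1.21 (0.97 to 1.52) and 1.17 (0.82 to 1.70) in the other cells. Clock had ratios of 0.69 (0.52 to 0.91) in ribosome-poor and 1.25 (0.96 to 1.62) in other control cells. In the 4E-BP1–cKO library this order was not repeated, with 0.92 (0.58 to 1.48) in ribosome-poor and 0.79 (0.50 to 1.25) in other cells. Arntl lay below 1 in all 4 sets, between 0.61 and 0.84, and each of those intervals held 1. Per2 had 9 UMIs above and 0 below in other 4E-BP1–cKO cells (interval from 1.59 upward), and its intervals in the remaining sets held 1. The share of all genes on 1 side of 1 in all 4 sets was not computed.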

How the data were processed

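The authors aligned the reads to mm10 with Cell Ranger count (8.0.1 in the file headers) and deposited raw UMI counts per gene and called cell, without normalization. The annotation release and the counting of introns are not given in the sources used here. The members and gene lists were chosen with earlier results of these data known. The filter on barcodes was over 300 genes and under 5% of UMIs mitochondrial, after which UMIs were summed per library, cell state or cluster. Log2 ratios used CPM plus 1, and genes needed at least 20 UMIs over both sides. Scrublet (scanpy 1.11.5) called 4 doublets in the control and 11 in the 4E-BP1–cKO library, which were removed only as an alternative. Clusters were made in Seurat 5.3.0 under R 4.3.3 (sctransform 0.4.2, RPCA, 20 components, resolution 1.4) without 36 clock genes. TMM factors came from edgeR 4.0.16, and other steps used Python 3.11.15, numpy 2.4.6, scipy 1.17.1 and pandas 2.3.3. The direction of library ratios and the cover of their intervals were tested on simulated Poisson counts, the kind of counts these intervals assume. That simulation holds no uneven spread of UMIs over cells. Thinning was checked for its depth, and the other steps were not tested in this way. Named genes were the members, genes of lists that were counted, and, for members with at least 500 UMIs, the 3 genes of at least 200 UMIs most correlated with them. Alternatives were other cell filters, doublet removal, thinning, other scalings, pseudocount, weighting, ribosomal divisions, clusterings and minimum counts. The kept cells held 4803562 and 1734332 UMIs in 1 library per genotype. Columns of other samples numbered 0.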

Additional observations from a re-analysis of the deposited data

Results flagged for a closer look

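Ratios of clock genes between cell states that lay on opposite sides of 1 in the 2 libraries were flagged in 2 cases. These are not all such cases. By early gene share within the other cells, Clock stood at 1.25 in the control and 0.79 in the 4E-BP1–cKO library, and both intervals held 1. Arntl, the activator with few UMIs, had a ratio of ribosome-poor over other cells of 1.36 in the control and 0.887 in the 4E-BP1–cKO library, from 44 and 51 UMIs and from 9 and 21 UMIs, and both intervals held 1. Cry1 had a ratio of 1.28 in the control and 0.732 in the 4E-BP1–cKO library between cells above and at or below the median early gene share. Within the ribosome-poor cells the same ratio of Cry1 was 1.52 and 1.504, and within the other cells 1.21 and 1.17. None of these differences between the libraries was tested.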

How the results depend on the processing

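The count of 0 clock genes past 1.5-fold between the libraries became 5 after thinning (Per2, Dbp and Nr1d1 higher, Arntl and Cry2 lower), 1 as a mean within clusters (Cry2) and 2 as a mean over cells (Per3 lower, Dbp higher), and was 0 in the other 6 settings. Thinning moved the balance of day-peaking genes to 77.88% in the control and 90.24% in the 4E-BP1–cKO library, and that of Per1 and Per2 to 90% in the latter; the first 2 balances stayed within their intervals in the other 13 combinations of library and setting, and the remaining balances were not recomputed. The 3 and 4 clock genes higher in ribosome-poor cells became 1 and 2 with TMM factors, 0 in the control with the division at 2%, and 2 in the 4E-BP1–cKO library with totals that left out ribosomal protein and mitochondrial genes. The 1841 genes past 1.5-fold between the libraries became 215 with at least 200 UMIs, 4938 with no minimum and 538 at 2-fold. Of the 3 clock genes over 500 UMIs, 2 were highest in a ribosome-poor cluster at each resolution and with all genes in the clustering. At the main resolution clusters 1, 2, 4 and 8 of the 9 were ribosome-poor. The share of all genes highest in such a cluster was not computed, so this count shows nothing particular to clock genes. The cause of each shift was not tested, except that thinning and higher minimum counts leave fewer UMIs or genes. As a mean within clusters the log2 ratios of Per2 and Dbp between the libraries changed sign, from 0.46 to -0.52 and from 0.23 to -0.24, though neither was past 1.5-fold. The small log2 ratios of Clock and Cry1 changed sign too, from -0.07 to 0.04 and from -0.04 to 0.05. Depth limits Per2, Dbp, Nr1d1 and Cry2 most. No paired analysis was possible because each genotype has 1 library, and for the same reason no replicate could be left out.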
